A study of Mus musculus with 15 samples.

Results

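The genes described here make, sense or remove the oxygenated products of arachidonic acid: the lipoxygenase genes Alox15 and Alox5, the leukotriene genes Alox5ap, Ltc4s and Cysltr1, and the prostaglandin genes Ptgs1, Ptgs2, Hpgds, Ptgdr2 and Hpgd. They were chosen by symbol, and all 10 were found once among the 55487 mouse gene identifiers of the count table. All 10 were among the 19006 genes tested, for which 5 or more libraries had to hold 10 or more counts. Transcripts were measured by polyA-selected RNA-Seq of conjunctiva, the mucosa that lines the eyelids and covers the white of the eye, in 15 libraries.

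Every mouse was labelled wild type (WT) of strain BALC/c, as the labels spell it, and carried the same skin treatment, MC903 + OVA. MC903 (calcipotriol) is a vitamin D analog that inflames the skin, and OVA (ovalbumin) is the model antigen. The mice were females aged 9 to 12 weeks, MC903 was given at 2.5 nmol per day for 7 days, and eye drops followed daily for 7 days, from day 18 to day 24. The PBS group (5 libraries) received PBS drops, with the antibody labelled N/A. The isotype group (5 libraries) received OVA drops and an isotype control antibody, and the anti–IL-4Rα group (5 libraries) received OVA drops and an antibody against the IL-4 receptor α chain, which carries the signals of IL-4 and IL-13, each at 25 mg/kg in 4 doses. No group went without skin sensitization, so the comparisons separate ocular challenge and antibody only. Isotype against PBS (written "with OVA" from here on) changes the challenge and also the control antibody, which the PBS group lacked, and the parts of the 2 cannot be told apart. Anti–IL-4Rα against isotype ("with blockade") compares the antibodies under the same challenge. Both use the same isotype libraries.

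Phospholipases free arachidonic acid from membranes, and 2 enzyme families then oxidize it. The cyclooxygenases, encoded by Ptgs1 (the form most tissues make all the time) and Ptgs2 (the inducible form), make prostaglandin H2, which hematopoietic prostaglandin D synthase (Hpgds) turns into prostaglandin D2, a mediator of mast cells that attracts type 2 cells through the receptor encoded by Ptgdr2. Hpgd inactivates prostaglandins. Among the lipoxygenases, Alox5 works with its activating protein, encoded by Alox5ap, to make leukotriene A4, which Ltc4s joins to glutathione to give the cysteinyl leukotrienes that act on the receptor encoded by Cysltr1 in allergic inflammation. Alox15 makes 12- and 15-hydroperoxy acids and is known as a gene that IL-4 and IL-13 switch on in macrophages and epithelia.

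Promoter sequences of 7 of the 10 genes were held in the RefSeq table for GRCm38.p6. Those of the cyclooxygenase pair are shown, because Ptgs2 was called with OVA and with blockade and Ptgs1 was not. The stretches below are the 250 bases before the annotated start of each gene, and a 30-base stretch just after the start of Ptgs2; all are read 5′ to 3′ on the plus strand. Capitals mark the letters of searched motifs, namely the C/EBP-type palindrome TTGCGCAA, the core CGTCA of a cAMP response element and the E-box CACGTG.
Ptgs2, chr1:150099781-150100030: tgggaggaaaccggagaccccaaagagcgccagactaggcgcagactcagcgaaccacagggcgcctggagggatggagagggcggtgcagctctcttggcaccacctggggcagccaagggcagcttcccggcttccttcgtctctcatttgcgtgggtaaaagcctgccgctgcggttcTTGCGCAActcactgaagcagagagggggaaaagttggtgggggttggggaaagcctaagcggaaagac
Ptgs2, chr1:150100036-150100065: caccactaCGTCACGTGgagtccgctttac
Ptgs1, chr2:36230176-36230425: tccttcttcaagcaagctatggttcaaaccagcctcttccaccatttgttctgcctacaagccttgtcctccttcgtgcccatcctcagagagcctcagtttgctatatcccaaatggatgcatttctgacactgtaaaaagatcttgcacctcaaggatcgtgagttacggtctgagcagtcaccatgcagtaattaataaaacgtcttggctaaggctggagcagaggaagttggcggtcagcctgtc
TTGCGCAA began 69 bases upstream of the Ptgs2 start. CGTCA and CACGTG began at transcript positions 14 and 17 of Ptgs2 and share 2 letters. Among 32851 promoter windows of 300 bases (250 before to 50 after the start), searched on both strands, 0.183% held TTGCGCAA, 20.8% held CGTCA and 7.15% held CACGTG. The Ptgs1 window held none of these letters, nor TATAAA, which 13.6% of windows held, nor the STAT6-type repeat of TTC and GAA with 4 bases between, which 6.95% held. The Ptgs2 window also lacked TATAAA and the STAT6-type repeat, so the pair did not differ in these. The windows of Hpgds, Alox5, Ltc4s and Ptgdr2 likewise held none of the searched motifs, and that of Hpgd held only TATAAA. The stretch upstream of Ptgs2 was 61.6% G and C and that of Ptgs1 48.0%, against a median of 52.4% over all promoters. These are matches of letters and were not tested for binding or for a link to expression.

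Library totals ranged from 48622246 to 87745024 counts. The labelled tissue was checked against 7 conjunctival epithelial genes (Krt4, Krt13, Krt19, Krt7, Pax6, Muc4 and Muc5ac). All 7 were detected, with summed levels of 3430 to 6040 CPM (counts per 1000000, normalized with TMM factors) over the 15 libraries. Genes taken as markers of tissues beside the conjunctiva were detected too. Their sums were 15800 to 29100 CPM for 6 epidermal genes (Krt1, Krt10, Lor, Flg2, Krt5 and Krt14). The sums were 3340 to 9630 CPM for 5 skeletal muscle genes and 1780 to 5200 CPM for 5 meibomian gland genes. Whether conjunctival epithelium also makes some of the epidermal genes was not tested. The libraries are thus not of conjunctival epithelium alone, and sums of different genes do not give shares of tissue. Genes of lacrimal acinar cells, which make tear proteins, varied far more: 7 of them summed to between 12.3 and 50700 CPM with PBS, between 28.9 and 32100 CPM with isotype and between 1100 and 151000 CPM with anti–IL-4Rα. In 4 of the 5 anti–IL-4Rα libraries (replicates 1, 2, 4 and 5) the sum exceeded that of every other library, so results of that group are also given with a lacrimal score in the fit and for replicate 3 alone. The 7 genes were Lcn11, Obp1a, Scgb2a2, Mucl2, Scgb1b3, Esp4 and Esp6. The authors reported these genes, or genes of their families, as increased by anti–IL-4Rα in these same data. The sum and the score are therefore not an independent measure of lacrimal tissue in that group. In bulk tissue, fewer cells of a type and less RNA per cell cannot be told apart.

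Between the isotype and PBS groups 4 of the 10 genes differed. Alox15, Ptgs2 and Alox5ap were higher and Hpgd was lower in the isotype group than in the PBS group, at an adjusted p under 0.05 in edgeR's quasi-likelihood test with Benjamini-Hochberg adjustment over all genes tested. Of all genes tested, 17.0% were called in this comparison (9.53% higher and 7.49% lower). The median log2 fold change was 0.29 over the 10 genes and -0.01 over all genes. With blockade, 3 of the 10 genes were lower than in the isotype group, Alox15, Ptgs2 and Hpgds, and none was called higher, where 14.9% of all genes were called (6.73% higher and 8.13% lower) and the medians were -0.33 and 0.01. The anti–IL-4Rα group differed from the PBS group in 1 gene, Hpgd, which was lower. There 3.72% of all genes were called (2.28% higher and 1.44% lower), and the medians were -0.09 and -0.0043. The plot of fold changes shows these calls beside the genes that were not called.

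**Figure D1:**
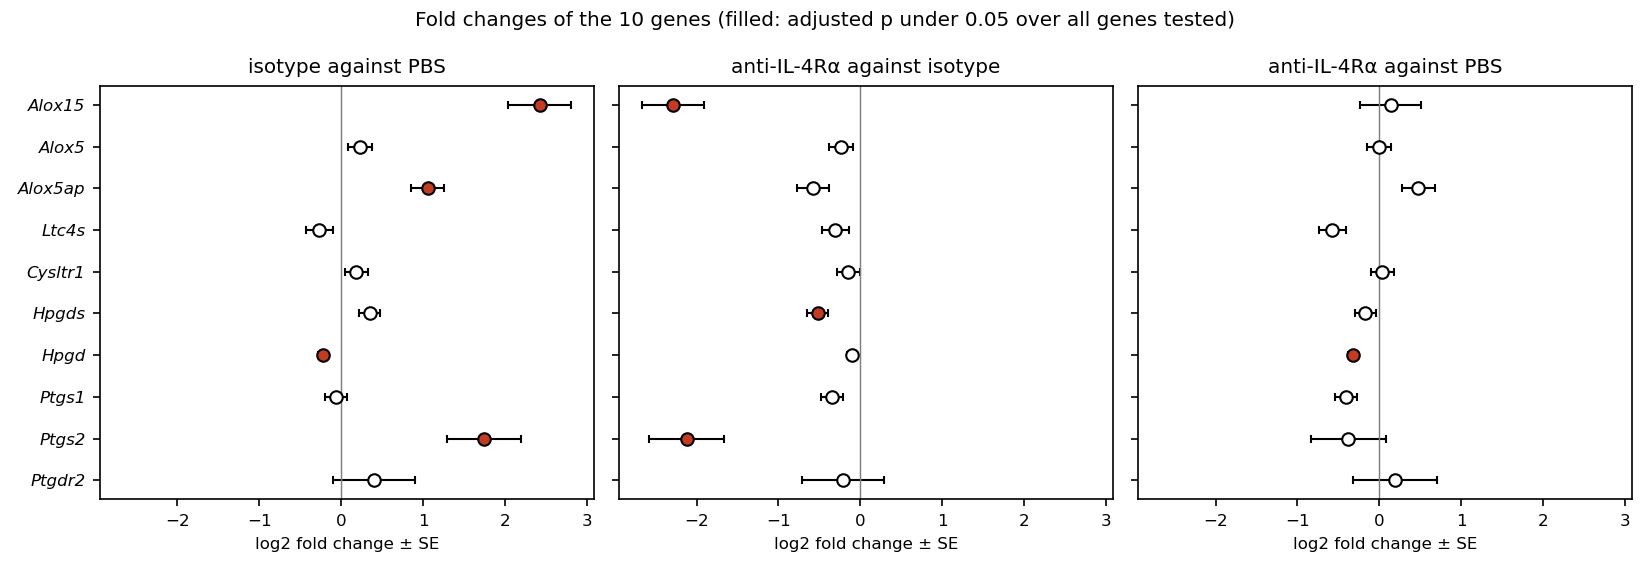
Log2 fold change with its SE (horizontal axis) of the 10 genes (vertical axis) in the 3 comparisons, from 1 model over 15 libraries; filled points have an adjusted p under 0.05. Alox15 lies at 2.42 for isotype against PBS and at -2.29 for anti–IL-4Rα against isotype, while Alox5 and Cysltr1 lie between -0.23 and 0.23 in all 3 panels.

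Levels were compared between genes per kilobase of exon. In the PBS group Ptgs1 led with 22.8 ± 4.05 CPM per kilobase (SD, n = 5), followed by Alox15 (13.5 ± 3.99), Hpgd (12.5 ± 0.969) and Alox5ap (8.25 ± 0.635). Then came Hpgds (3.77 ± 0.273), Ltc4s (3.64 ± 0.280) and Alox5 (3.19 ± 0.273), and below them Cysltr1 (0.982 ± 0.103), Ptgs2 (0.302 ± 0.0983) and Ptgdr2 (0.0471 ± 0.0307). Libraries overlapped between neighbours for Ptgs1 and Alox15, Alox15 and Hpgd, Hpgds and Ltc4s, and Ltc4s and Alox5, so their order is not set; the other neighbours were separate. In the isotype group Alox15 stood first at 72.5 ± 38.6 CPM per kilobase and its lowest library (32.6) was above the highest Ptgs1 library (25.7). Ptgs1 (21.8 ± 2.62) and Alox5ap (17.1 ± 5.77) followed, with overlapping libraries. In the anti–IL-4Rα group Ptgs1 (17.2 ± 2.93) was again first and Alox15 (14.8 ± 6.63) second, with overlapping libraries. Ptgdr2 was last in every group.

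**Figure D2:**
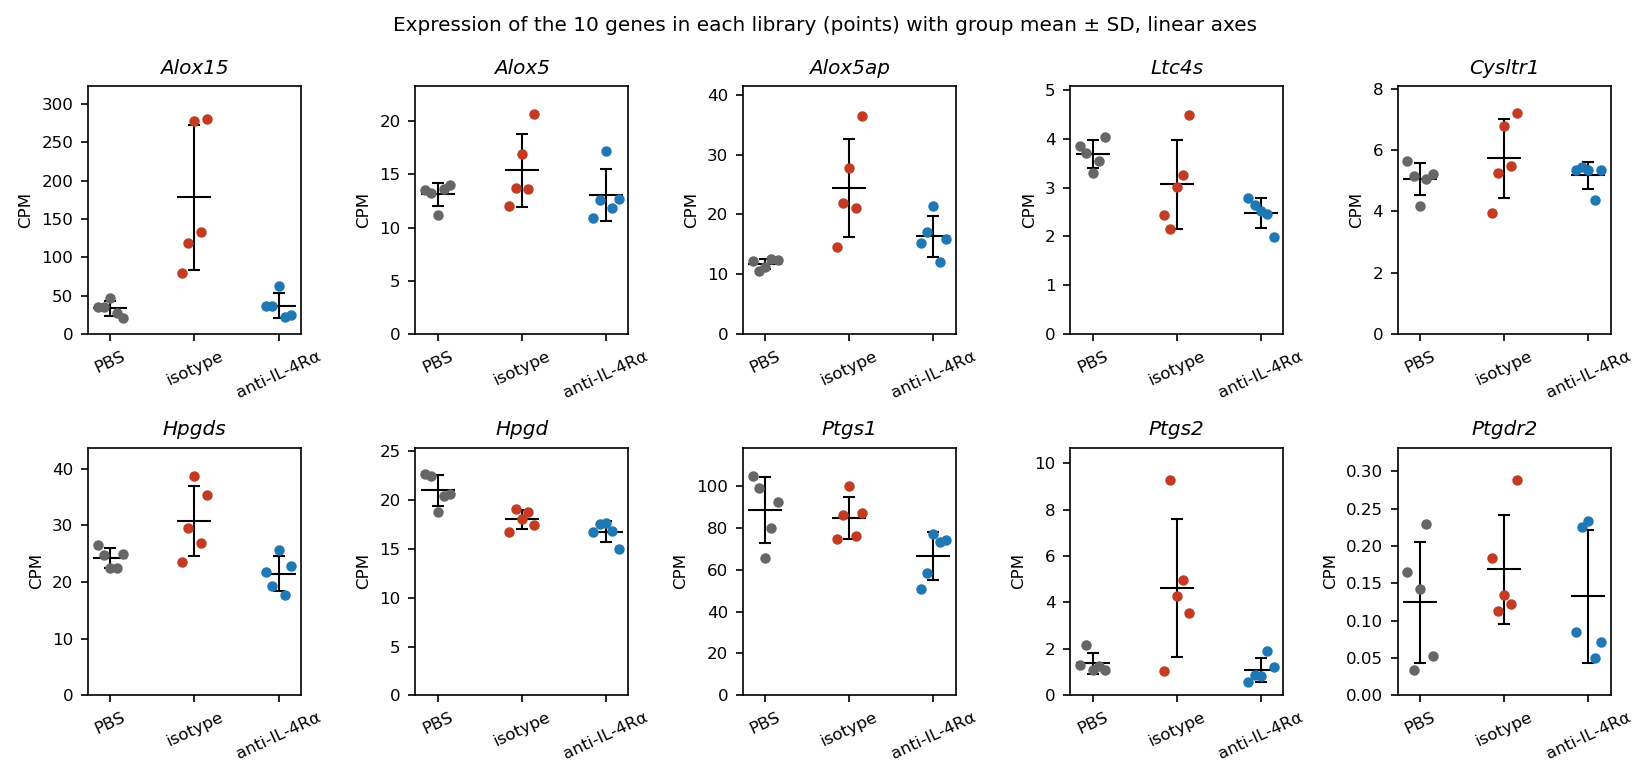
CPM (vertical axis, linear, from 0, a different range in each panel) of the 10 genes in each library of the PBS, isotype and anti–IL-4Rα groups (horizontal axis, points in replicate order from 1 to 5), with the group mean and SD (bars). The 5 isotype libraries of Alox15 (80.0 to 281 CPM) sit above all libraries of the other groups, the highest of which has 62.7 CPM, whereas the groups overlap for Alox5, Cysltr1 and Ptgdr2.

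Alox15 (ENSMUSG00000018924, chr11:70344152-70352031 of GRCm38, minus strand) was called in both of these comparisons, with the largest log2 fold change of the 10 for isotype against PBS. Its PBS libraries held 35.3, 34.9, 47.2, 27.2 and 21.1 CPM, from replicate 1 to replicate 5. The isotype libraries held 80.0, 118, 278, 133 and 281 CPM, and those with anti–IL-4Rα 36.9, 36.4, 62.7, 21.6 and 24.4 CPM. Every isotype library was above every library of the other groups, isotype replicates 3 and 5 stood far above the others, and the PBS and anti–IL-4Rα groups overlapped. Alox15 was 5.37-fold higher with OVA and isotype than with PBS (log2 fold change 2.42 ± 0.386, SE; adjusted p = 0.00208). With blockade it was 0.205 times the isotype level (log2 fold change -2.29 ± 0.384; adjusted p = 0.00446), and in an exact permutation test both differences had a two-sided p of 0.00794, the smallest that 5 against 5 libraries allow. Non-overlapping groups were seen for 2 of the 10 genes for isotype against PBS, where 12.3% of all genes had them, and for 1 of the 10 for anti–IL-4Rα against isotype, where 7.31% had them. Anti–IL-4Rα against PBS gave a log2 fold change of 0.14 ± 0.368 (adjusted p = 0.868), which spans a wide range and turned to -0.15 without anti–IL-4Rα replicate 3. Both Alox15 calls held under 10 of 10 other settings of the analysis and without any 1 of the 15 libraries.

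Alox15 has close relatives beside it on chromosome 11: Alox12 at chr11:70241457-70255353 and Alox12e, an epidermal lipoxygenase, at chr11:70315610-70322628. By the methods the counts came from uniquely mapped read pairs, and any further handling of reads shared between such genes is not stated. Alox12e was the most abundant lipoxygenase per length (190 ± 35.3 CPM per kilobase in the PBS group and 221 ± 43.7 in the isotype group). It was 0.22 ± 0.182 higher with OVA on the log2 scale (adjusted p = 0.433) and fell by 0.85 with blockade (SE 0.183, adjusted p = 0.0134). Alox12, the platelet-type enzyme, was lower with OVA (log2 fold change -0.43 ± 0.139, adjusted p = 0.0493), a call that held under 5 of 10 other settings and in 3 of 15 fits without 1 library. Alox12b, Alox8 and Aloxe3, the other lipoxygenases of the list, were not called in either comparison. With OVA 0 of the 5 relatives were called higher and 1 lower, where 9.53% of all genes were called higher and 7.49% lower. With blockade 1 was called lower, where 6.73% of all genes were called higher and 8.13% lower. A list with 1 call is too short to be read against those shares.

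The leukotriene genes did not move as 1 group. Alox5 (ENSMUSG00000025701, chr6:116410077-116461178, minus strand), the enzyme itself, held 11.2 to 14 CPM with PBS (median 13.5), 12 to 20.7 with isotype (median 13.7) and 10.9 to 17.2 with anti–IL-4Rα (median 12.6). The groups overlapped, and its log2 fold change was 0.23 ± 0.146 with OVA (adjusted p = 0.297) and -0.23 ± 0.146 with blockade (adjusted p = 0.276). Its partner Alox5ap (ENSMUSG00000060063, chr5:149264767-149288153, plus strand) held 12.1, 10.5, 11.1, 12.5 and 12.4 CPM with PBS, 14.6, 21.9, 27.8, 21.1 and 36.4 CPM with isotype, and 15.2, 17.0, 21.4, 12 and 15.9 CPM with anti–IL-4Rα. Each isotype library exceeded each PBS library, isotype replicate 5 was the highest, and the anti–IL-4Rα libraries lay between and overlapped both groups. Alox5ap was 2.08-fold higher with OVA (log2 fold change 1.05 ± 0.2, adjusted p = 0.00494), under 10 of 10 other settings and in 15 of 15 fits without 1 library. With blockade its log2 fold change was -0.58 ± 0.198 (adjusted p = 0.0630), called under 2 of 10 other settings. Against PBS the anti–IL-4Rα group gave 0.48 ± 0.199 (adjusted p = 0.166). Exons of Alox5ap overlap Gm19719 on the opposite strand, and whether counting used strand is not stated.

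Ltc4s (ENSMUSG00000020377, chr11:50236461-50238616, minus strand), the committed enzyme of the cysteinyl branch, was not called in any of the 3 comparisons with all libraries in the fit. It held 3.86, 3.72, 3.31, 3.54 and 4.04 CPM with PBS, 2.43, 2.16, 3.01, 3.27 and 4.50 CPM with isotype, and 2.79, 2.65, 2.52, 2.45 and 1.98 CPM with anti–IL-4Rα. All anti–IL-4Rα libraries were below all PBS libraries, as in 6.1% of all genes (2 of the 10 genes here), while isotype replicate 5 was the highest library of all. The log2 fold change was -0.27 ± 0.166 for isotype against PBS (adjusted p = 0.282), -0.31 ± 0.167 for anti–IL-4Rα against isotype (adjusted p = 0.214) and -0.57 ± 0.167 for anti–IL-4Rα against PBS (adjusted p = 0.0665), the last being called under 3 of 10 other settings. Without isotype replicate 5 the first of these was -0.44 (adjusted p = 0.0463, a call) and the second -0.13 (adjusted p = 0.533). The exact permutation test of anti–IL-4Rα against PBS gave a two-sided p of 0.00794. Exons of Ltc4s overlap Gm26542 on the opposite strand.

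Cysltr1 (ENSMUSG00000052821, chrX:106574346-106603679, minus strand), the main receptor for leukotriene D4, ranged from 4.19 to 5.64 CPM with PBS (median 5.16), from 3.96 to 7.20 with isotype (median 5.47) and from 4.37 to 5.46 with anti–IL-4Rα (median 5.35). All groups overlapped, with log2 fold changes of 0.18 ± 0.139 with OVA (adjusted p = 0.386) and -0.15 ± 0.139 with blockade (adjusted p = 0.470). Its paralog Cysltr2, the second cysteinyl leukotriene receptor, was called in both comparisons although its level was low (0.212 ± 0.0414 CPM with PBS, 0.582 ± 0.119 with isotype and 0.230 ± 0.0820 with anti–IL-4Rα; SD, n = 5). The log2 fold change of Cysltr2 was 1.45 ± 0.231 with OVA (adjusted p = 0.00211) and -1.33 ± 0.233 with blockade (adjusted p = 0.00533). Its isotype libraries overlapped neither of the other groups.

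Of the cyclooxygenase pair, Ptgs2 was called with OVA and with blockade, and Ptgs1 was not called. A call for Ptgs2 and none for Ptgs1 is not a test between them. Ptgs2 (ENSMUSG00000032487, chr1:150100031-150108227, plus strand) held 1.31, 2.17, 1.08, 1.26 and 1.11 CPM with PBS. With isotype it held 1.04, 9.27, 4.26, 4.98 and 3.56 CPM, and with anti–IL-4Rα 0.554, 0.874, 0.845, 1.90 and 1.20 CPM. Isotype replicates 2 to 5 were above every library of the other groups, replicate 2 was the highest of all, and isotype replicate 1 lay below every PBS library, so the groups overlapped. Ptgs2 was 3.35-fold higher with OVA (log2 fold change 1.74 ± 0.450, adjusted p = 0.0196), and the exact permutation test gave 0.0476. Without isotype replicate 2 the log2 fold change was 1.32 and the call was lost (adjusted p = 0.0528), as it was on the log2(FPKM + 1) scale (0.56, adjusted p = 0.0550). With blockade Ptgs2 was 0.230 times the isotype level (log2 fold change -2.12 ± 0.461, adjusted p = 0.0137), called in 15 of 15 fits without 1 library, but not with only these 2 groups in the fit or with the lacrimal score (adjusted p up to 0.0620). Anti–IL-4Rα against PBS gave -0.38 ± 0.457 (adjusted p = 0.674).

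Ptgs1 (ENSMUSG00000047250, chr2:36230426-36252272, plus strand) held 105, 99.2, 65.6, 80.2 and 92.5 CPM with PBS, 74.7, 86.0, 99.9, 76.1 and 87.1 CPM with isotype, and 51.0, 58.3, 76.9, 73.4 and 74.1 CPM with anti–IL-4Rα. The isotype libraries lay within the PBS range, and the anti–IL-4Rα libraries lay lower with an overlap. No difference was called: the log2 fold change was -0.06 ± 0.138 with OVA (adjusted p = 0.797) and -0.34 ± 0.138 with blockade (adjusted p = 0.101), where the exact permutation test gave a two-sided p of 0.0317. Exons of Ptgs1 overlap Gm43621 on the opposite strand.

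Hpgds (ENSMUSG00000029919, chr6:65117293-65144908, minus strand), the prostaglandin D2 synthase of mast cells and Th2 cells, held 26.6, 24.7, 22.4, 22.5 and 24.9 CPM with PBS. It held 23.6, 29.5, 38.7, 26.9 and 35.3 CPM with isotype and 21.8, 19.3, 25.7, 17.7 and 22.9 CPM with anti–IL-4Rα. Isotype replicates 2 to 5 were above every other library, replicates 3 and 5 the most, and isotype replicate 1 lay within the other groups. The difference with OVA was not called (log2 fold change 0.35 ± 0.127, adjusted p = 0.0747), though it was without isotype replicate 1 (0.43, adjusted p = 0.0227) and under 3 of 10 other settings. With blockade Hpgds was 0.698 times the isotype level (log2 fold change -0.52 ± 0.127, adjusted p = 0.0211), with 0.0159 by exact permutation. That call ended on leaving out isotype replicate 3 (adjusted p = 0.0588), isotype replicate 5 (0.0505) or, on the treated side, anti–IL-4Rα replicate 4 (0.0545), with only these 2 groups in the fit (0.0666) and with the lacrimal score (0.0702). Against PBS the anti–IL-4Rα group gave -0.17 ± 0.127 (adjusted p = 0.452).

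Ptgdr2 (ENSMUSG00000034117, chr19:10937160-10942511, plus strand), the prostaglandin D2 receptor of Th2 cells, eosinophils and basophils, was near the floor. Its libraries held 2 to 16 counts each, or 0.0339 to 0.229 CPM with PBS, 0.113 to 0.289 with isotype and 0.0494 to 0.233 with anti–IL-4Rα. At this depth no difference was detectable: the log2 fold change was 0.40 ± 0.501 with OVA (adjusted p = 0.615) and -0.21 ± 0.499 with blockade (adjusted p = 0.793). Its exons overlap those of Ccdc86 on the opposite strand.

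Hpgd (ENSMUSG00000031613, chr8:56294585-56321043, plus strand), which starts the breakdown of prostaglandins, moved the other way and by little. It held 22.7, 22.5, 18.8, 20.4 and 20.6 CPM with PBS, 16.7, 19.1, 18.1, 18.8 and 17.5 CPM with isotype, and 16.7, 17.6, 17.7, 16.8 and 15 CPM with anti–IL-4Rα. PBS replicates 1 and 2 were the highest, the isotype group overlapped both others, and all anti–IL-4Rα libraries were below all PBS libraries. Hpgd fell by 0.22 on the log2 scale with OVA (SE 0.0629, adjusted p = 0.0295), a call that leaving out any 1 of 5 libraries ended (PBS replicates 1, 2 and 5 and isotype replicates 3 and 5; adjusted p up to 0.0743), as did testing without a filter on low counts (0.0790). Against PBS the anti–IL-4Rα group gave -0.32 ± 0.0631 (adjusted p = 0.0231). That call ended when PBS replicate 1, PBS replicate 2, anti–IL-4Rα replicate 1 or anti–IL-4Rα replicate 5 was left out (adjusted p up to 0.0683). It also ended with the lacrimal score (0.0886). Anti–IL-4Rα against isotype gave -0.10 ± 0.0631 (adjusted p = 0.261).

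The lacrimal sums were highest in 4 of the 5 anti–IL-4Rα libraries, although 0 of the 7 lacrimal genes were called for anti–IL-4Rα against isotype (median log2 fold change 2.71) or against PBS (2.81). For Alox15 the fit with the lacrimal score gave -2.11 for anti–IL-4Rα against isotype (adjusted p = 0.00937) and 2.59 for isotype against PBS (adjusted p = 0.00105), so both calls remained. For Ptgs2 and Hpgds with blockade the score left log2 fold changes of -1.81 (adjusted p = 0.0620) and -0.46 (adjusted p = 0.0702). Anti–IL-4Rα replicate 3, with 1100 CPM of lacrimal transcripts, had 62.7 CPM of Alox15, 0.845 CPM of Ptgs2 and 25.7 CPM of Hpgds. Its Alox15 was the highest of its group and still below the lowest isotype library, and its Ptgs2 was below every isotype library, whereas its Hpgds was within the isotype range. With replicate 3 as the lone anti–IL-4Rα library, assumed to vary like the other groups, 0 of the 10 genes were called against isotype, where 2 of all genes were, and Alox15 gave a log2 fold change of -1.5 (adjusted p = 0.840).

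**Figure D3:**
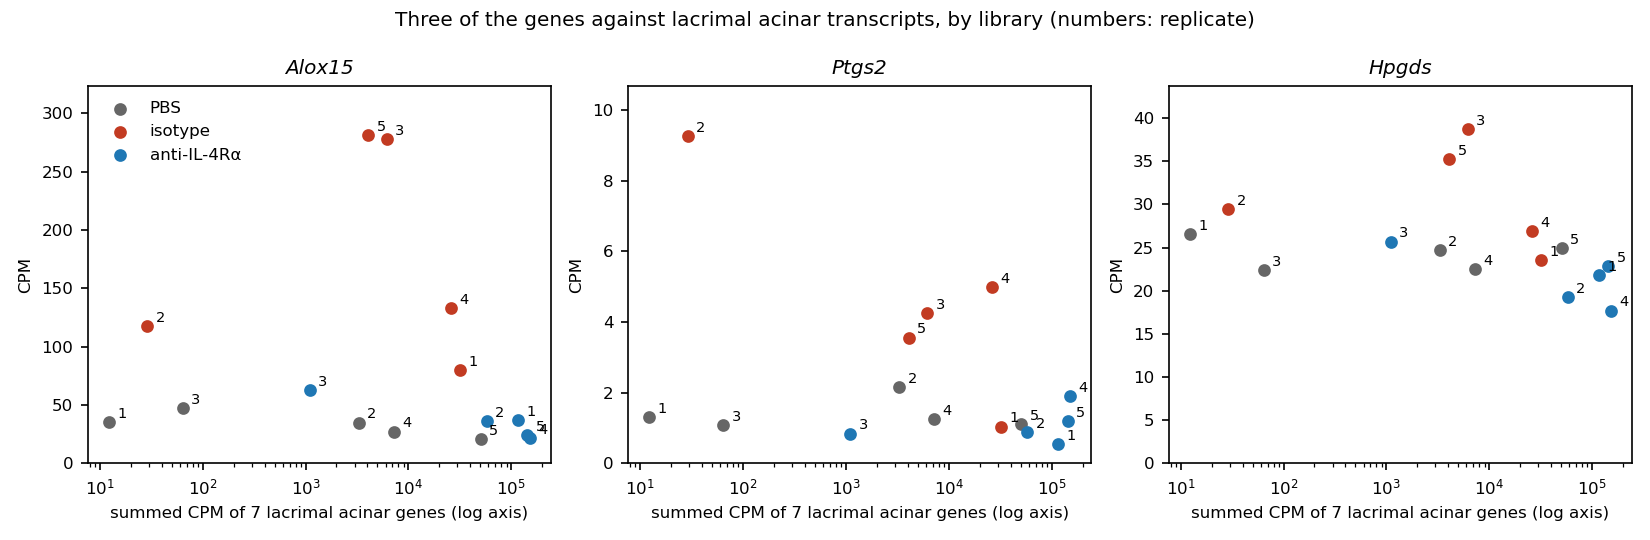
CPM of Alox15, Ptgs2 and Hpgds (vertical axes, linear, from 0) against the summed CPM of 7 lacrimal acinar genes (horizontal axis, log scale) in the 15 libraries, colored by group and numbered by replicate. Isotype libraries of Alox15 lie above the other groups across the lacrimal range from 28.9 to 32100 CPM.

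Calls were also counted for markers of leukocytes that express these genes and of other tissues. Of all genes tested, 9.53% were called higher and 7.49% lower with OVA. With blockade 6.73% were called higher and 8.13% lower. A marker list with 1 call is too short to be read against those shares. Of 7 macrophage genes, 5 were higher with OVA and 1 was lower with blockade. Their summed level was 303 to 316 CPM with PBS, 384 to 838 with isotype and 369 to 511 with anti–IL-4Rα, with none at 0. Alternatively activated macrophage genes (Arg1, Chil3, Retnla, Mgl2 and Clec10a) gave 3 of 5 higher with OVA and 3 of 5 lower with blockade, and summed to 161 to 206, 213 to 425 and 158 to 259 CPM, with Chil3 under 0.05 CPM in the PBS group. Of 7 mast cell genes, 3 were higher with OVA and 1 lower with blockade, with sums of 140 to 191, 156 to 279 and 154 to 203 CPM. All 5 basophil genes were higher with OVA and 1 was lower with blockade, with sums of 9.30 to 10.6, 14.4 to 30.4 and 14.5 to 17.8 CPM and Mcpt8 under 0.05 CPM with PBS. Of the 6 eosinophil genes, 3 were tested and all 3 were higher with OVA (none called with blockade), with sums of 2.51 to 3.44, 5.17 to 14.8 and 3.14 to 14.7 CPM. The granule gene Epx and Ear6 stayed under 0.05 CPM in every group, and Prg2 in the PBS group. Neutrophil genes gave 3 of 5 tested higher with OVA and 2 lower with blockade (40.9 to 66.9, 72.2 to 149 and 29.8 to 115 CPM). The neutrophil gene Ly6g was under 0.05 CPM in every group. Th2 and ILC2 genes gave 4 of 6 tested higher with OVA and 1 lower with blockade (82.1 to 125, 104 to 183 and 78.5 to 118 CPM). Skeletal muscle genes, from tissue beside the conjunctiva, were lower with OVA for 5 of 5 (5590 to 9630, 3340 to 5090 and 4430 to 6580 CPM). Of 6 epidermal keratin and barrier genes, 1 was higher with OVA and 1 lower with blockade (20500 to 29100, 21200 to 28200 and 15800 to 23100 CPM).

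Within each library, log2 CPM of a gene was also set against that of another gene or of a marker list (the mean over its genes). These 6 measures were chosen after the values were seen, so they are given as a description with no test. Alox15 relative to the macrophage list was -0.10 ± 0.436 with PBS, 1.40 ± 0.431 with isotype and -0.48 ± 0.473 with anti–IL-4Rα (SD, n = 5), and all isotype libraries lay above all others. Alox15 relative to Alox5 was 1.29 ± 0.550 with PBS, 3.38 ± 0.522 with isotype and 1.39 ± 0.462 with anti–IL-4Rα, again with the isotype libraries apart. Relative to its neighbour Alox12e it was -4.04 ± 0.244, -1.96 ± 0.735 and -3.32 ± 0.356, and there the isotype libraries overlapped those with anti–IL-4Rα. Alox5ap relative to the macrophage list stayed within a narrow span, at -1.55 ± 0.111, -1.36 ± 0.138 and -1.56 ± 0.141, with overlapping groups. Ptgs2 relative to Ptgs1 was -5.99 ± 0.345, -4.48 ± 1.08 and -6.01 ± 0.494, with overlapping groups. Hpgds relative to the mast cell list was 0.60 ± 0.153, 0.28 ± 0.205 and 0.18 ± 0.128, so its mean was highest with PBS. A list over a whole tissue does not show which cells hold a transcript, and the part of cell numbers in these results was not tested.

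**Figure D4:**
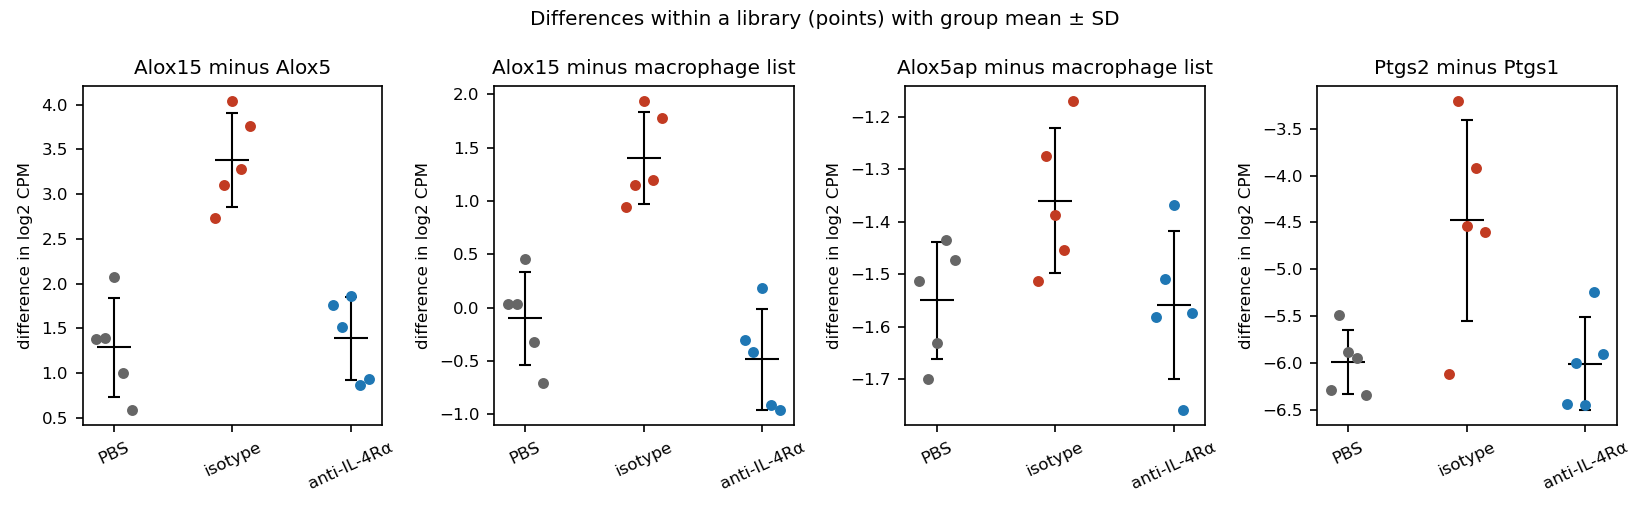
Difference in log2 CPM within a library (vertical axis) for Alox15 against Alox5, Alox15 against the mean of 7 macrophage genes, Alox5ap against the same list, and Ptgs2 against Ptgs1, by group (horizontal axis; points are libraries, bars the mean and SD, n = 5). Alox15 stands higher in all isotype libraries by both measures, while Alox5ap against the macrophage list overlaps between groups.

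The rest of the pathway was read from 7 lists of 57 genes, of which 55 were tested (Oxgr1 and Gpr17 were too low). With OVA 13 were called, 8 higher and 5 lower, and with blockade 15, 4 higher and 11 lower. That is 23.6% and 27.3% of those tested, where 17.0% (9.53% higher and 7.49% lower) and 14.9% (6.73% higher and 8.13% lower) of all genes were called. The median log2 fold changes were 0.02 and -0.06, and a list with 1 or 2 calls is too short to be read against those shares. Against PBS, only Tbxas1, thromboxane A synthase, was called in the anti–IL-4Rα group (log2 fold change 0.90 ± 0.214, adjusted p = 0.0375). The plot of the lists shows called genes on both sides of 0.

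**Figure D5:**
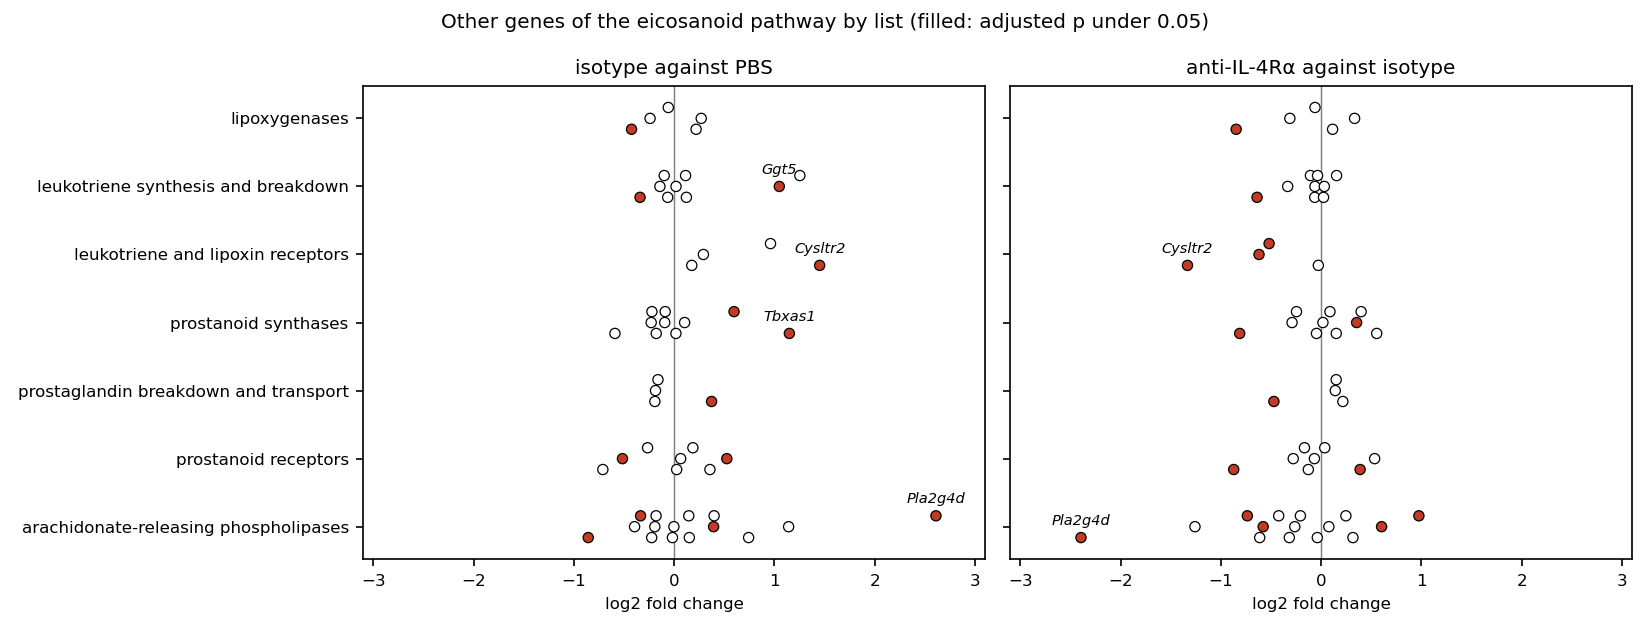
Log2 fold change (horizontal axis) of 55 other eicosanoid genes grouped in 7 lists (vertical axis) for isotype against PBS (left) and anti–IL-4Rα against isotype (right); points are genes, filled where the adjusted p is under 0.05, and called genes beyond a change of 1 are named. Pla2g4d is farthest from 0 on both sides, at 2.61 and -2.40.

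Upstream, of 15 phospholipase genes 2 were higher and 2 lower with OVA, and 2 were higher and 3 lower with blockade. Pla2g4d, a cytosolic phospholipase A2 of keratinocytes, rose from 0.807 ± 0.298 to 4.96 ± 0.955 CPM with OVA (log2 fold change 2.61 ± 0.261, adjusted p = 0.000177) and was at 0.942 ± 0.286 CPM with anti–IL-4Rα (-2.40 ± 0.259 against isotype, adjusted p = 0.000225). Its relative Pla2g4f moved the same way by less (0.39 ± 0.109, adjusted p = 0.0258, and -0.58 ± 0.109, adjusted p = 0.00762). Pla2g2d, a secreted enzyme of lymphoid dendritic cells and macrophages, moved oppositely (-0.86 ± 0.148, adjusted p = 0.00305, and 0.97 ± 0.148, adjusted p = 0.00258). Plaat3, a phospholipase of adipocytes, was lower with OVA (-0.34 ± 0.0814, adjusted p = 0.0152). Pla2g4b was lower with blockade (-0.74 ± 0.2, adjusted p = 0.0293) but not with the lacrimal score, and its exons overlap Gm28042 on the same strand. Pla2g12a was higher with blockade (0.60 ± 0.169, adjusted p = 0.0321), but not called with the lacrimal score. Pla2g4a, the phospholipase that usually feeds Alox5 and the cyclooxygenases, held 25.6 ± 3.06 CPM with PBS, 25.6 ± 3.18 with isotype and 21.3 ± 2.48 with anti–IL-4Rα and was not called.

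In leukotriene synthesis and breakdown 1 of 9 genes was higher and 1 lower with OVA, and 1 lower with blockade. Ggt5, which trims leukotriene C4 to D4, was higher with OVA (log2 fold change 1.05 ± 0.195, adjusted p = 0.00449) and lower with blockade (-0.64 ± 0.194, adjusted p = 0.0422, called under 5 of 10 other settings and in 4 of 15 fits without 1 library). Ptgr1, which inactivates leukotriene B4, was lower with OVA (-0.34 ± 0.0903, adjusted p = 0.0214), though not without isotype replicate 3 (adjusted p = 0.0566). Lta4h, which makes leukotriene B4, held 49.9 ± 2.40, 50.5 ± 2.15 and 48.3 ± 2.53 CPM in the PBS, isotype and anti–IL-4Rα groups and was not called. Of 4 leukotriene and lipoxin receptors tested, Cysltr2 alone was called with OVA, and 3 were lower with blockade. These were Cysltr2 and both leukotriene B4 receptors, Ltb4r1 (-0.52 ± 0.111, adjusted p = 0.0128) and Ltb4r2 (-0.62 ± 0.137, adjusted p = 0.0146), neither of which was called with OVA (adjusted p = 0.288 and 0.154).

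Among 10 prostanoid synthases 2 were higher with OVA. Ptges, the inducible prostaglandin E2 synthase that works with Ptgs2, was higher (0.60 ± 0.121, adjusted p = 0.00688) and was lower with blockade (-0.81 ± 0.121, adjusted p = 0.00238), with calls in 15 of 15 fits without 1 library. Tbxas1 was higher with OVA (1.15 ± 0.214, adjusted p = 0.00455) and not called with blockade (-0.25 ± 0.211, adjusted p = 0.429). Akr1b3, a prostaglandin F synthase among other roles, was higher with blockade (0.35 ± 0.0916, adjusted p = 0.0252) but not with the lacrimal score. Of 4 genes of breakdown and transport, the uptake carrier Slco2a1 was higher with OVA (0.37 ± 0.111, adjusted p = 0.0340) and lower with blockade (-0.47 ± 0.111, adjusted p = 0.0181, not called with the lacrimal score). Of 8 prostanoid receptors, 1 was higher and 1 lower with OVA, and likewise with blockade. Ptger2 was higher (0.52 ± 0.149, adjusted p = 0.0285) and Ptgfr lower with OVA (-0.52 ± 0.120, adjusted p = 0.0125). With blockade Ptgfr was higher (0.39 ± 0.120, adjusted p = 0.0448, called under 5 of 10 other settings) and Ptgdr, the other prostaglandin D2 receptor, lower (-0.87 ± 0.201, adjusted p = 0.0169).

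The genes whose log2 CPM ran closest to each of the 10 over all 15 libraries were taken among 15490 genes of at least 1 CPM, as a description. For Alox15 these were Galnt6, Adam10 and Samhd1, with Pearson r of 0.971, 0.956 and 0.952. Alox5ap ran with the leukocyte genes Csf2rb2, Nckap1l and Btk (r = 0.991, 0.989 and 0.989), and Alox5 with Tgfbi, Rgs18 and Vwa5a (0.939, 0.908 and 0.905). Rgs18 was also among the nearest of Cysltr1 (r = 0.881), after Hhex and Nrp1 (0.890 and 0.889). Ptgs2 ran with Epgn, an epidermal growth factor receptor ligand, and the immediate early gene Arc (0.940 and 0.934). Among the nearest of Ptgs1 were Fam57a, Rnf225 and Fndc9 (0.971, 0.967 and 0.964), of Hpgds Tbc1d10b and Pld1 (0.929 and 0.926), of Hpgd 9530082P21Rik, Ppip5k1 and Gm49327 (0.931, 0.880 and 0.871), of Ltc4s Phactr2, Gsn and Prkag2 (0.882, 0.857 and 0.845), and of Ptgdr2 Phf10, Patl1 and Wdr91 (0.832, 0.826 and 0.809). The libraries share group and tissue make-up, so these values describe likeness over the 3 groups together.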

How the data were processed

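The authors deposited estimated counts per gene (expected counts, which need not be whole) for 15 RNA-Seq libraries of conjunctiva, made from uniquely mapped read pairs. By their methods, polyA-selected stranded libraries were read in pairs, reads were filtered at a quality score of 20, and uniquely mapped pairs were counted on the B38 mouse genome in Omicsoft Array Studio; its version, and how strand and paralogs were handled, are not given in the sources used here. The methods mention 2 outliers that they do not identify, and all 15 libraries were used. Counts were rounded, and the 19006 genes that reached 10 counts in 5 or more libraries were fitted in edgeR 4.0.16 (TMM factors, quasi-likelihood test, 1 model over the 3 groups, two-sided) in R 4.3.3, with Benjamini-Hochberg adjustment over all genes tested and calls at an adjusted p under 0.05. The SE is the log2 fold change divided by the square root of F. CPM is per 1000000 normalized counts, with a prior count of 2 on the log2 scale. Exact permutation tests ran over the 252 splits of 10 libraries. The labels name each library as a mouse, and the methods give n = 5 for each group. Neither states outright that the libraries are separate animals, so p-values measure the spread between these libraries.

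Names, positions and exon lengths came from GENCODE M21 (GRCm38), an older gene set than the authors used; 346 of 55487 identifiers had no name. Promoters came from RefSeq GRCm38.p6; the table held 7 of the 10 genes. The genes and lists were chosen with earlier results of these data known. Named were all 10 genes, of each pathway list the called genes (at most 4 with the largest change per comparison), 3 nearest genes for each of the 10 (2 of which are not reported here), and markers only by counts and sums; Alox12b, Alox8, Aloxe3, Pla2g4a and Lta4h were named after their values were seen. Alternatives were RLE and upper quartile factors, DESeq2 1.42.0, limma 3.58.1 (voom with quality weights), a linear model on log2(FPKM + 1), the filterByExpr filter, no filter, only the 2 groups compared, a replicate block, a lacrimal score covariate, and each library left out in turn. Leaving out the 4 lacrimal-rich anti–IL-4Rα libraries was added after seeing the data. The fits were tested on simulated data. Plots used matplotlib 3.10.9 in Python 3.11.15.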

Additional observations from a re-analysis of the deposited data

Results flagged for a closer look

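Of 30 sets of 5 libraries (10 genes in 3 groups), 3 held a library whose distance to the next was large for the spread of its group by Dixon's test. Chance alone gives about 1 in 20 such sets. Alox5 was lowest in PBS replicate 3, at 11.2 CPM, with the nearest library at 13.3 CPM. Cysltr1 was lowest in anti–IL-4Rα replicate 4, at 4.37 CPM, with the nearest at 5.34 CPM. Ptgs2 was highest among PBS libraries in replicate 2, at 2.17 CPM, with the nearest at 1.31 CPM. The isotype libraries of Alox15 and Ptgs2, which spread more widely, were not marked by this test.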

How the results depend on the processing

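The Alox15 calls held under every alternative listed in the methods, and Alox5ap with OVA likewise, apart from the comparison with a lone anti–IL-4Rα library. For isotype against PBS, 4 genes of the 10 were called (3 to 5 with each library left out), 13 of the pathway lists (8 to 18 with each library left out, 8 without isotype replicate 3), 3235 of all genes (1863 to 3936 with each library left out, 4273 with DESeq2, 4033 with voom, 2214 without a filter and 4552 with the lacrimal score), and 5 of the 10 by the exact permutation test (3 to 6). For anti–IL-4Rα against isotype, 3 of the 10 were called (2 to 4 with each library left out), 1 with only 2 groups or the lacrimal score, and 0 without the lacrimal-rich libraries. The pathway lists gave 15 (10 to 19), then 8, 9 and 0, and all genes 2826 (882 to 4206), then 675, 798 and 2, with 1749 without a filter. The exact test gave 4 of the 10 (3 to 6). For anti–IL-4Rα against PBS, 1 of the 10 was called (0 to 2), 2 with DESeq2, voom or only 2 groups, and 0 with the lacrimal score or without the lacrimal-rich libraries. The pathway lists gave 1 (0 to 7), 6 with DESeq2, 10 with voom, 3 with only 2 groups and 0 with log2(FPKM + 1), no filter, the lacrimal score or without the lacrimal-rich libraries. All genes gave 707 (82 without PBS replicate 1 or 2, 2029 without anti–IL-4Rα replicate 3), 1966 with DESeq2, 2318 with voom, 294 with log2(FPKM + 1), 327 without a filter, 77 with the lacrimal score and 11 without the lacrimal-rich libraries. The exact test gave 3 of the 10 (3 to 4). The number of all genes called moved by over 1.5 times, for isotype against PBS, without PBS replicate 2 (2018) or 5 (2098) or isotype replicate 2 (2040) or 3 (1863). For anti–IL-4Rα against isotype it did so on leaving out isotype replicates 2 (1124), 3 (882) and 5 (1418) and, each alone too, anti–IL-4Rα replicates 1 (1060), 2 (1436), 4 (1164) and 5 (1446). With only 2 groups Ptgdr2 was not tested, and the causes of these changes were not tested.

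Same-numbered libraries did not steadily deviate together (correlations of -0.385 to 0.454), so no pairing by number was seen. Tissue make-up also varies between libraries, so these correlations cannot exclude a pairing. With the replicate number as a block 2115, 1859 and 312 genes were called in the 3 comparisons in the order above; of the 10, Hpgd with OVA was lost (adjusted p = 0.0514), and the pathway lists gave 0 for anti–IL-4Rα against PBS. No other of the 10 changed its call.

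Of the log2 fold changes of the 10 genes, those that changed sign were called under no alternative named here. For isotype against PBS this was Ptgs1 (-0.1522 to 0.0062 with single libraries left out). For anti–IL-4Rα against isotype these were Alox5 (0.1685 without the lacrimal-rich libraries) and Ptgdr2 (-0.4991 to 0.0674 with single libraries left out, 0.497 without the lacrimal-rich ones). For anti–IL-4Rα against PBS, Alox15 gave -0.0658 with voom and -0.1518 to 0.2981 with single libraries left out. Alox5 gave 0.0018 with RLE factors, 0.0025 with DESeq2, 0.0385 with the lacrimal score, -0.126 to 0.0541 with single libraries left out and 0.404 without the lacrimal-rich ones. Cysltr1 gave -0.0252 to 0.0889 and Ptgdr2 -0.096 to 0.496 with single libraries left out. Ptgdr2 gave -0.206 with voom, and Hpgds 0.0978 without the lacrimal-rich libraries. Counts of 2 to 16 per library limit Ptgdr2.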
